A study of Mus musculus with 6 samples.

Results

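The genes described here are 10 Kruppel-like factors, Klf2, Klf3, Klf4, Klf6, Klf7, Klf9, Klf10, Klf11, Klf13 and Klf15, out of 19938 genes named on the arrays. They were taken as the probe sets, the array's groups of probes, that the platform annotation gives to these symbols, and each gene had 1 such probe set. They were chosen by gene family, with the log2 differences between these same arrays already known, so the group differences of the 10 genes are given as a description, with their calls but with no p of their own. Left ventricles came from male C57/BL6 mice, 10 weeks old, and were compared between a saline group and a group given 50 mg/kg of 2-methyl-2-thiazoline (2MT) under the skin. Each group had 3 arrays, and the hearts were taken 4 h after the injection. The labels name no genetic change in either group and do not say whether each array stands for its own animal, so p-values cover the spread between the arrays of a group, and that spread may be technical alone. The tissue was whole ventricle, in which fewer cells of a type and less RNA per cell cannot be told apart. All 10 cardiomyocyte markers were well above the dim filter, with a mean log2 signal of 12.12 to 12.15 on each array, whereas all 10 neutrophil markers and the 8 lymphocyte markers measured lay under it.

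Kruppel-like factors are transcription factors with a conserved zinc finger domain at the end of the protein that binds GC-rich and CACCC sequences in DNA. Their other domains differ: Klf2, Klf4, Klf6 and Klf7 belong to the group that often activates, Klf3 to the group that recruits the corepressor CtBP, and Klf9, Klf10, Klf11 and Klf13 to the group that recruits the corepressor Sin3. In the heart, Klf15 is known as a brake on cardiomyocyte growth and a regulator of amino acid, glucose and lipid use, and Klf2 and Klf4 are known for keeping the endothelium quiescent.

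Of the 10 genes, 2 were lower in 2MT hearts by the call used for all genes, an adjusted p under 0.05 in limma, and 0 were higher. These were Klf6, 1.53-fold lower, and Klf15, 1.32-fold lower. Among all 10547 genes tested, 4.63% were called in either direction and 2.41% were called lower. Since the list was chosen with this comparison known, nothing is read from the share. The groups did not overlap for the same pair of genes (21.1% of all genes tested in either direction, and 10.1% in the lower direction) and overlapped for the other 8. The mean was lower in 2MT for 9 of 10 genes, where 49.2% of all genes tested had a lower mean. Among the 9, Klf3 (-0.02) and Klf10 (-0.11) changed sign with 1 array left out. Nothing is read from this count either. The median log2 difference of the 10 genes was -0.14, against 0.003 over all genes tested.

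The DNA before the start sites of Klf6 and Klf15 is shown because these were the genes with a call. The sequences are the 250 bases before the start of each gene in RefSeq (build GRCm38.p6), at chr13:5861239-5861488 on the plus strand for Klf6 and at chr6:90462326-90462575 on the plus strand for Klf15. Capitals mark GGGCGG, a GC box of the kind that Kruppel-like and Sp factors bind, on either strand, and CACGTG, the E-box read by clock and Myc family factors. The other motifs searched are given below and are not marked, among them TGACNNNGC, which is in both windows.
Klf6: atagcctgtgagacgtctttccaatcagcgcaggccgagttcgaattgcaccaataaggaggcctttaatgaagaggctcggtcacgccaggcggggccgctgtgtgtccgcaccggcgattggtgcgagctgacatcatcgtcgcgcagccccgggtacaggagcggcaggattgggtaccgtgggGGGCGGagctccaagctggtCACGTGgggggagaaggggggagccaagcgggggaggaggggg
Klf15: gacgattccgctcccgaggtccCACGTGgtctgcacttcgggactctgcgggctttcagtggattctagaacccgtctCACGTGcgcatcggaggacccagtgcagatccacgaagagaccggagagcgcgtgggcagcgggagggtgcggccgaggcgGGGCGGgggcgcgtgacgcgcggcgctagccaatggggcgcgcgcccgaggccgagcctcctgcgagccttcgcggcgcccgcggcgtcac

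Klf6 held 1 CACGTG, which began 43 bases before the start, and Klf15 held 2, which began 228 and 172 bases before it. CACGTG was present in 6.02% of the 32851 windows of this length in the RefSeq table. It also stood before Klf4 (chr4:55532640-55532669, minus strand) and Klf11 (chr12:24651145-24651174, plus strand), which had no call. These 30-base stretches are printed for comparison, with CACGTG in capitals.
Klf4: cgcccccgccccCACGTGcgcggagtttgt
Klf11: cccggaccaaaaCACGTGccgccgcccgcc

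So 4 of the 9 listed genes with a window held the E-box letters, the called pair and 2 others. No window for Klf10 was used here. The GC box GGGCGG was in 8 of the 9 windows, all but that of Klf9, and in 32.7% of all windows, and the CACCC box was in 6 of 9 against 52%. The 9 windows were GC-rich, at 59.2% to 78.4% G and C against a median of 52.4% over all windows. TGACNNNGC, the core of the antioxidant response element, was found before Klf3, Klf6 and Klf15 (10.2% of all windows). TGACG, the core of the cAMP response element, was found in 5 windows (17.8%), and AGAACA, a glucocorticoid receptor half-site, was in 0 of 9 (16.1%), which says only that these letters are not in these windows. Both strands were searched, and matches of different motifs may overlap. A match describes the letters and is no evidence of binding.

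Klf6, an activator-type factor that is induced early after injury in many tissues, fell the most. Its log2 signal was 7.86, 7.92 and 7.67 on the saline arrays and 7.10, 7.22 and 7.28 on the 2MT arrays. The lowest saline array stood 0.39 above the highest 2MT array, so the groups were apart. The difference was -0.62 ± 0.08 (SE, 95% interval -0.78 to -0.45), from 7.82 ± 0.13 to 7.20 ± 0.09 (SD, n = 3). Klf6 kept its call under all 17 alternatives in processing, with differences between -0.69 and -0.57.

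Klf15, the factor tied to cardiac metabolism and to glucocorticoid action, was at 7.52, 7.56 and 7.37 on the saline arrays. It was at 7.05, 7.09 and 7.10 on the 2MT arrays, which lay within 0.05 of each other and all below the saline arrays. The difference was -0.40 ± 0.07 (SE, interval -0.55 to -0.26), from 7.48 ± 0.10 to 7.08 ± 0.03 (SD, n = 3). Its call also held under all 17 alternatives, with differences between -0.46 and -0.36.

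**Figure D1:**
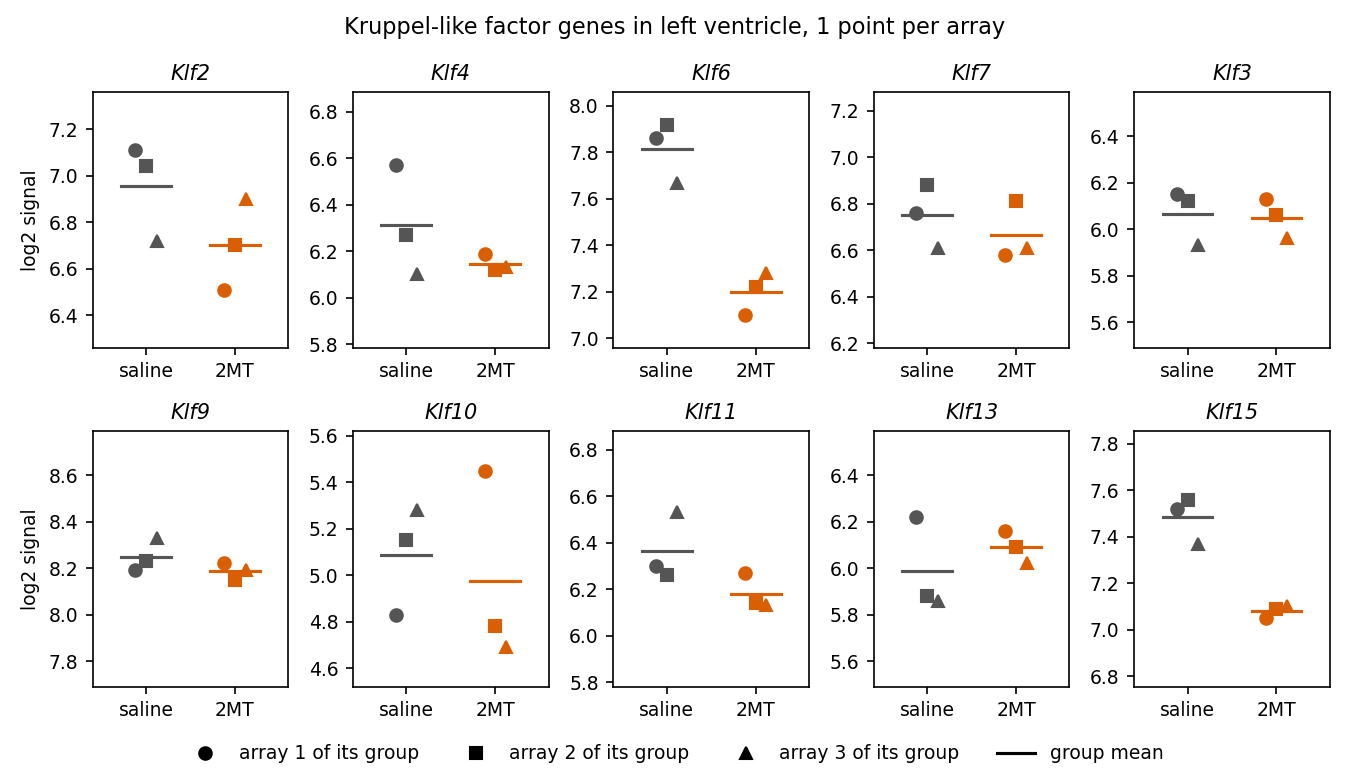
Log2 signal (vertical axis, 1.1 log2 units tall in every panel) of the 10 Kruppel-like factor genes in the saline and the 2MT group, with 1 point per array and a line at the group mean. Klf6 and Klf15 have saline arrays that all lie above the 2MT arrays, and the other 8 genes have groups that overlap.

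Among the other activator-type members, Klf2, which responds to blood flow in endothelium, was at 7.11, 7.04 and 6.72 on the saline arrays and 6.51, 6.70 and 6.90 on the 2MT arrays. The lowest saline value lay inside the range of the 2MT group. Its difference of -0.25 ± 0.11 (SE, 95% interval -0.49 to -0.02) gave no call, and the interval is not adjusted for the number of genes tested. Klf4, a flow-responsive partner of Klf2 that is also a pluripotency factor, was at 6.57, 6.27 and 6.10 on the saline arrays and 6.19, 6.12 and 6.13 on the 2MT arrays. Its difference of -0.17 ± 0.10 rested largely on saline 1: without that array it was -0.04. Klf7, known for roles in neurons and fat cells, was at 6.76, 6.88 and 6.61 against 6.58, 6.81 and 6.61, with a difference of -0.08 ± 0.09 and the groups largely superimposed.

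Klf3, the CtBP-recruiting repressor of the list, had a difference of -0.02 ± 0.09 (SE). It was at 6.15, 6.12 and 5.93 on the saline arrays and 6.13, 6.06 and 5.96 on the 2MT arrays, so both groups covered nearly the same range. Its interval ran from -0.20 to 0.17.

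The Sin3-recruiting members had no call. Klf9, a target of glucocorticoid and thyroid hormone, was at 8.19, 8.23 and 8.33 on the saline arrays and 8.22, 8.15 and 8.19 on the 2MT arrays. Its difference of -0.06 ± 0.06 (SE) had a 95% interval of -0.19 to 0.06. Klf11, a TGF beta inducible gene, was at 6.30, 6.26 and 6.53 against 6.27, 6.14 and 6.13. The groups touched by 0.01, and the difference was -0.18 ± 0.09, or -0.10 without saline 3. Klf13, a factor that takes part in heart development, was the 1 gene with a higher mean in 2MT, at 6.22, 5.88 and 5.86 on the saline arrays against 6.16, 6.09 and 6.02. The highest of its 6 values was a saline array, and its difference was 0.10 ± 0.10.

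Klf10, the other TGF beta inducible gene, had the widest spread of the 10 genes in the 2MT group (SD 0.42, n = 3). It was at 4.83, 5.15 and 5.28 on the saline arrays and at 5.45, 4.78 and 4.69 on the 2MT arrays. The 2MT group thus held both the highest and the lowest value. Its difference of -0.11 ± 0.17 (SE) became -0.35 without 2MT 1 and 0.03 without 2MT 3, so it has no direction here. Its values lay the nearest to the dim filter of 4.345 among the 10 genes.

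**Figure D2:**
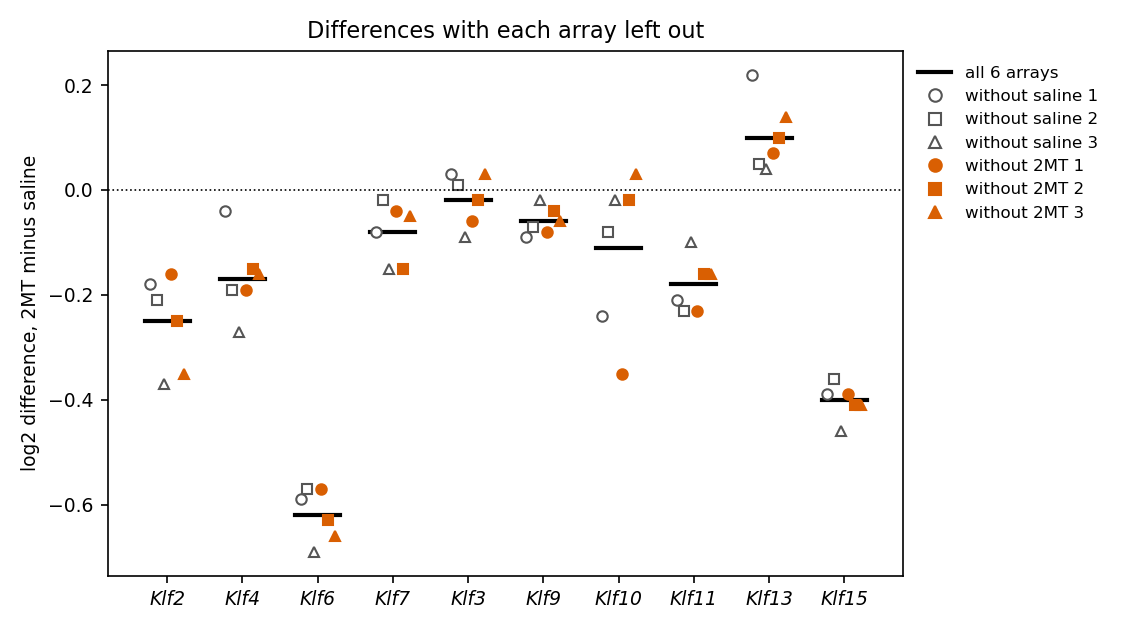
Log2 difference, 2MT minus saline (vertical axis), of each of the 10 genes (horizontal axis) with all 6 arrays (black line) and with each array left out in turn (open grey, a saline array left out; filled orange, a 2MT array left out). Klf6 stays between -0.69 and -0.57 and Klf15 between -0.46 and -0.36, whereas Klf10 runs from -0.35 to 0.03.

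Spread within the groups differed between the genes. The median SD of the 10 genes was 0.14 in saline and 0.08 in 2MT, against 0.10 and 0.08 over all genes tested. The SD was larger in saline for 9 of 10 genes, all but Klf10, where 56.5% of all genes tested had the larger SD in saline. Saline 3 gave the lowest of the saline values for 7 genes (Klf2, Klf3, Klf4, Klf6, Klf7, Klf13 and Klf15) and the highest for the remaining 3 (Klf9, Klf10 and Klf11). It was the lowest in 35.2% and the highest in 32% of all genes tested.

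That array also stood apart on the second principal component, at -11.63 against -1.12 to 4.65 on the others. The erythrocyte gene Alas2, the first enzyme of haem synthesis in red cells, was at 7.07 on saline 3 and at 5.15 to 5.76 on the others. Bpgm, a red cell glycolytic enzyme, was at 6.77 against 6.26 to 6.40. Slc4a1, a red cell marker under the dim filter named after its values were seen, did not set saline 3 apart. It was at 4.08 on saline 3 and 4.07 on saline 1. The other 5 of 8 listed erythrocyte markers had no probe set with 1 symbol. Red cell genes were not alone in this. The clock genes Arntl and Dbp, named after their values were seen, also set saline 3 apart from saline 1 and 2. Arntl was at 3.97 against 4.80 and 4.84, and Dbp at 7.75 against 7.15 and 7.14. Clock and Nr1d2 of the same list did not, at 7.56 against 7.65 and 7.63 and at 7.95 against 7.92 and 7.92. Without saline 3 the differences of Klf6 and Klf15 were larger, at -0.69 and -0.46. That of Klf2 was -0.37, close to the threshold but still without a call. Neither the part of red cell RNA nor that of the clock in these values was tested.

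The rest of the family gave no call. Of 17 other Klf and Sp genes listed, 15 were measured and 6 passed the dim filter, of which 0 were called in limma (1 at an unadjusted p under 0.05, 4.63% called over all genes). Their median difference was 0.03. The 9 under the dim filter had 0 calls in a limma fit with no filter (3 at an unadjusted p under 0.05, 2.05% called over all genes). Sp4, a glutamine-rich activator of the Sp branch, was at 5.13, 5.54 and 5.41 on the saline arrays and 5.56, 5.67 and 5.63 on the 2MT arrays. Its groups did not overlap, and its difference of 0.26 ± 0.11 (SE) did not pass (adjusted p = 0.207). Klf12, a CtBP-recruiting relative of Klf3, was higher on every 2MT array, at 6.34, 6.30 and 6.30 against 6.24, 6.21 and 6.07, and did not pass either (difference 0.14 ± 0.08, adjusted p = 0.363). Sp1 and Sp3, the widely expressed GC-box factors, differed by -0.05 ± 0.08 and 0.06 ± 0.06. A dimmer probe set of Sp3 gave 0.09 ± 0.11. Klf14 and Klf16, both of the Sin3 group, differed by 0.00 ± 0.09 and -0.11 ± 0.11.

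**Figure D3:**
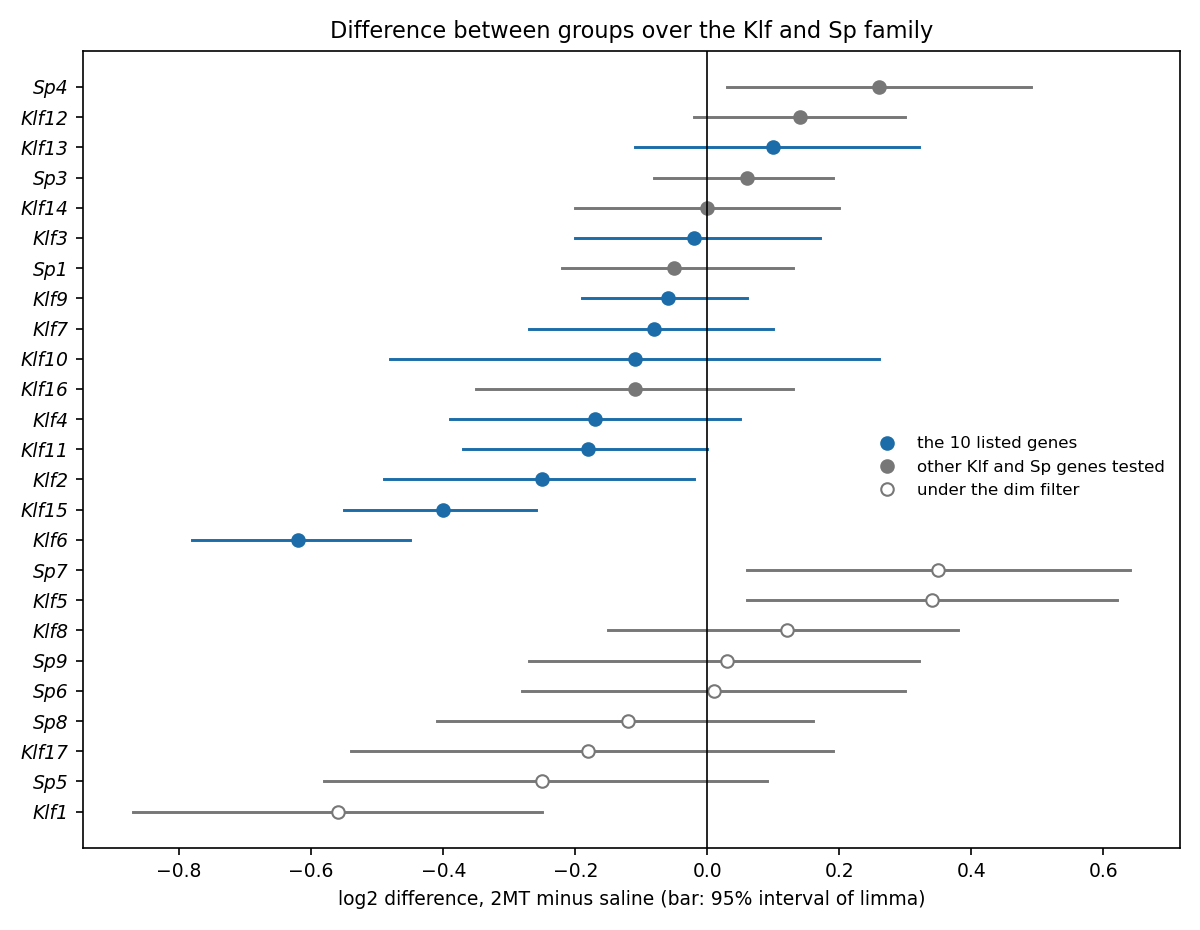
Log2 difference, 2MT minus saline (horizontal axis), with its 95% interval from limma, for the 10 listed genes (blue), the 6 other tested Klf and Sp genes (grey) and 9 under the dim filter (open). Klf6 at -0.62 and Klf15 at -0.40 lie farthest below 0 among the tested genes, and Sp4 at 0.26 farthest above.

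Genes that meet the Kruppel-like factors as partners gave no call. Of 17 tested corepressors, coactivators and ubiquitin ligases, 0 were called in limma (2 at an unadjusted p under 0.05, 4.63% called over all genes). Their median difference was 0.01. The corepressors Ctbp1 and Ctbp2 differed by 0.05 ± 0.06 and 0.01 ± 0.08 (SE), and Sin3a and Sin3b by -0.01 ± 0.08 and -0.01 ± 0.09.

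Glucocorticoid-induced genes, the class to which Klf9 and Klf15 belong, were lower in part. Of 15 tested genes of the glucocorticoid list 8 fell and 0 rose, with a median of -0.36, against 2.41% called lower over all genes. Mt1, a metallothionein, fell by 0.75 ± 0.04 (SE, adjusted p = 1.13e-07), and Fkbp5, a co-chaperone of the receptor, by 0.79 ± 0.07 (adjusted p = 1.83e-05). Pdk4, a brake on pyruvate oxidation, fell by 0.89 ± 0.08 and Zbtb16, a zinc finger repressor, by 0.55 ± 0.06. The receptor gene itself, Nr3c1, named after its values were seen, had a log2 signal of 7.06 ± 0.12 in saline and 7.34 ± 0.09 in 2MT (adjusted p = 0.0543; SD, n = 3), and passed under 5 of 17 alternatives, among them without saline 2 (0.0273). Within this class Klf15 was at -0.40 and Klf9 at -0.06, and the difference between them was not tested.

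Around Klf2 and Klf4, the upstream MEK5, ERK5 and MEF2 arm had 2 rises and 0 falls among 10 tested genes, with a median of 0.01 (2.22% called higher over all genes). Hdac9, a class II deacetylase that represses MEF2, rose by 0.49 ± 0.08 (SE, adjusted p = 0.00353). Mef2a, a MEF2 factor, rose by 0.19 ± 0.05 (adjusted p = 0.0418), a call that ended under 11 of 17 alternatives, among them leaving out saline 1 (0.133), saline 3 (0.0817), 2MT 1 (0.0802), 2MT 2 (0.13) or 2MT 3 (0.171). The ERK5 gene, Mapk7, differed by -0.13 ± 0.11.

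Of 17 tested endothelial genes linked to KLF2 and KLF4, 4 fell and 0 rose, with a median of -0.07 (2.41% called lower over all genes). The mean was lower in 2MT for 11 of the 17. The list was not split into genes that these factors induce and genes that they repress, so its median has no single meaning. The genes that fell are not specific to endothelium: Hmox1 and Nqo1, antioxidant enzymes, by 2.52 ± 0.10 and 0.71 ± 0.07, Ccn1, a matricellular protein, by 1.20 ± 0.08, and Ptgs2, the inducible cyclooxygenase, by 1.13 ± 0.09 (SE). Nos3, the endothelial nitric oxide synthase, and Thbd, the anticoagulant thrombomodulin, are the best known targets in this list and were named after their values were seen. The signal of Nos3 went from 5.91 ± 0.13 with saline to 5.63 ± 0.14 with 2MT (adjusted p = 0.128), and that of Thbd from 6.93 ± 0.28 to 6.74 ± 0.13 (SD, n = 3, adjusted p = 0.402). Without saline 3 Thbd passed, at a difference of -0.35 (adjusted p = 0.0334).

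Beside these values, 12 tested endothelial cell markers had a median of -0.00. Their mean log2 signal was 7.00, 6.98 and 6.81 on saline 1, 2 and 3 and 6.99, 6.90 and 6.86 on 2MT 1, 2 and 3. Saline 3 was thus the lowest saline array for these markers, as it was for Klf2 and Klf4. Pecam1, an adhesion molecule of endothelium, was the 1 marker that fell (2.41% called lower over all genes), by 0.33 ± 0.07 (SE, adjusted p = 0.02). Its adjusted p was above 0.05 after leaving out saline 1 (0.0936), saline 2 (0.0858), 2MT 2 (0.092) or 2MT 3 (0.112), and without the variance trend or with each probe set tested alone. The part of endothelial cell content in the values of Klf2 and Klf4 was not tested.

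Around Klf15, genes of amino acid breakdown, a process it promotes, had no call. Of 18 tested genes of branched-chain amino acid and proline catabolism 0 were called in limma (1 at an unadjusted p under 0.05, 4.63% called over all genes). Their differences ran from -0.16 to 0.22, with a median of -0.01. Bcat2, the mitochondrial transaminase that starts the pathway, named after its value was seen, was at 7.68 ± 0.14 in the saline group and 7.58 ± 0.04 in the other (SD, n = 3, adjusted p = 0.49).

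Of 13 tested genes of cardiac metabolism and ion currents linked to KLF15, 2 fell and 1 rose, with a median of 0.03 (2.41% called lower and 2.22% called higher over all genes). Pdk4 fell as given above, Fbxo32, a ubiquitin ligase subunit of muscle atrophy, fell by 0.62 ± 0.08, and Ppargc1a, a coactivator of mitochondrial genes, rose by 0.51 ± 0.07 (SE). Slc2a4, the insulin-responsive glucose transporter, and Kcnip2, the channel subunit of the transient outward current, are textbook KLF15 targets and were named after their values were seen. Slc2a4 was at 9.22 ± 0.02 in 2MT against 9.05 ± 0.06 (adjusted p = 0.0801). Kcnip2 was at 7.97 ± 0.08 against 7.77 ± 0.17 (SD, n = 3, adjusted p = 0.203), and passed without saline 3 at a difference of 0.28 (0.0465).

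Hypertrophy and fibrosis genes linked to repression by KLF15 moved both ways. The list includes genes of transcription factors and SRF coactivators, and whether KLF15 represses the listed genes themselves was not tested. Of 12 tested, 3 rose and 2 fell, with a median of 0.07 (2.22% called higher and 2.41% called lower over all genes). Nppb, the brain natriuretic peptide gene, rose by 1.73 ± 0.15 and Gata4, a cardiac transcription factor, by 0.34 ± 0.06 (SE). Myocd, the SRF coactivator myocardin, rose by 0.33 ± 0.08 (adjusted p = 0.0253), a call that ended after leaving out saline 1 (0.0743), saline 3 (0.0636), 2MT 1 (0.101) or 2MT 3 (0.0746), and under 2 other alternatives. The matricellular protein gene Ccn2 fell by 1.30 ± 0.08 and Mrtfb, another SRF coactivator, by 0.41 ± 0.06.

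Around Klf10 and Klf11, of 18 tested genes of the TGF beta pathway 3 fell and 0 rose, with a median of -0.05 (2.41% called lower over all genes). Besides Ccn2, these were Tgfbr3, a coreceptor, which fell by 0.37 ± 0.07, and Id1, an inhibitor of bHLH factors, which fell by 0.37 ± 0.08 (SE). Tgfbr3 did not pass without 2MT 3 (adjusted p = 0.0573). Id1 did not pass without saline 1 (0.0862), 2MT 2 (0.102) or 2MT 3 (0.106), nor under 2 other alternatives.

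Several members are also known from wider programmes. Of 17 tested circadian clock genes, a system that drives daily changes of Klf9, Klf10 and Klf15, 2 rose and 0 fell, with a median of -0.00 (2.22% called higher over all genes). They were the repressors Bhlhe40 and Bhlhe41, which rose by 0.54 ± 0.11 and 0.51 ± 0.11 (SE). Bhlhe40 did not pass without saline 1 (adjusted p = 0.0572), 2MT 1 (0.0621) or 2MT 2 (0.0654), nor did Bhlhe41 without 2MT 2 (0.0654), 2MT 3 (0.0648) or the trend term (0.0511). Among immediate early genes, a class that often includes Klf6, 14 were tested, of which 2 fell and 0 rose, with a median of -0.05 (2.41% called lower over all genes). Myc fell by 1.44 ± 0.13 and Dusp1, a MAP kinase phosphatase, by 0.52 ± 0.10. Myc was at 5.70, 5.31 and 5.78 on the saline arrays and 4.21, 4.27 and 3.99 on the 2MT arrays. Its 2MT values all lay under the dim filter of 4.345, so Myc passed that filter through its saline values alone. A stricter dim filter left it out. Dusp1 did not pass when 2MT 3 (0.0541) or the trend term (0.0668) was left out. Dusp1 is also counted among the 8 falls of the glucocorticoid list. The other 6 listed genes of this class lay under the dim filter. In the limma fit with no filter, Nr4a3, an orphan nuclear receptor, was at 4.42, 4.68 and 4.06 on the saline arrays and 3.54, 3.75 and 3.49 on the 2MT arrays, and fell by 0.79 ± 0.15 (SE, adjusted p = 0.0116). Of 18 tested genes of the NRF2 list, 12 fell and 0 rose, with a median of -0.56 (2.41% called lower over all genes). The 4 with the smallest p were Srxn1 and Hmox1, which fell by 2.76 ± 0.10 and 2.52 ± 0.10, and Gclm and Ftl1, which fell by 1.49 ± 0.07 and 1.15 ± 0.06 (SE). Hmox1 and Nqo1, both among the 12, are also among the 4 falls of the endothelial list.

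**Figure D4:**
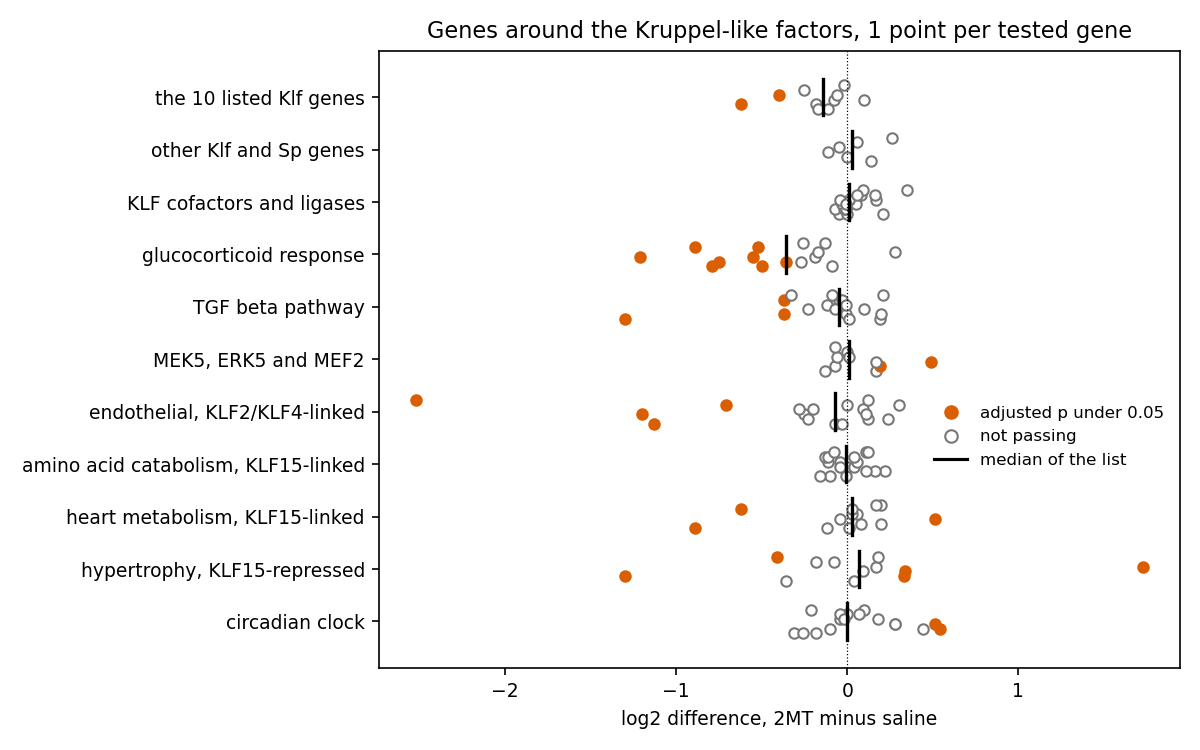
Log2 difference, 2MT minus saline (horizontal axis), of each tested gene in the 10 listed Klf genes and in 10 lists of genes around them (rows), with genes past an adjusted p of 0.05 filled and a black line at the list's median. The glucocorticoid list has 8 filled points, all below 0, and the rows of amino acid catabolism and KLF cofactors have none. The NRF2 list, with 12 of 18 tested genes called lower, and the immediate early list are not drawn.

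Among markers of the other cell types of the ventricle that passed the dim filter, 1 was called (4.63% called over all genes). Medians were 0.01 over 10 cardiomyocyte, 0.03 over 10 fibroblast, -0.00 over 8 smooth muscle and pericyte, -0.03 over 9 macrophage and -0.05 over 5 atrial and skeletal muscle markers, with 0 calls in limma (1, 1, 1, 0 and 1 at an unadjusted p under 0.05). Of 2 tested erythrocyte markers 0 were called (0 at an unadjusted p under 0.05). Of 2 tested adipocyte markers Cidea fell, by 0.26 ± 0.07 (adjusted p = 0.0435), a call that ended under 11 of 17 alternatives, among them leaving out any 1 array (adjusted p of 0.166, 0.0558 and 0.0571 without saline 1, 2 and 3, and 0.143, 0.0524 and 0.173 without 2MT 1, 2 and 3). Of the 10 neutrophil markers, all under the dim filter, Clec4d, a C-type lectin receptor of myeloid cells, fell in the limma fit with no filter. It was at 4.28, 4.70 and 4.75 on the saline arrays and 3.26, 3.65 and 3.14 on the 2MT arrays, a fall of 1.23 ± 0.16 (SE, adjusted p = 0.000585). The other 9 neutrophil markers were not called in that fit. Nr4a3 and Clec4d, named after their values were seen, were the 2 genes called among the 52 listed genes under the dim filter (1.11% called lower over all genes with no filter).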

How the data were processed

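The deposited table gives 1 log2 signal per probe set for 28944 probe sets on 6 arrays. The scale was read from the range of 0.51 to 13.5, since the submitters' processing notes name only MAS5, without role or version, and the authors' normalization is not given in the sources used here. These values were used as deposited, although linear signals had been planned for. Detection calls were not used here, so how far a signal lies over background is unknown, and precision is limited by the number of arrays.

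Of the probe sets, 21789 carried 1 gene symbol in the platform annotation, 1621 several and 5534 none. A gene was its probe set with the highest mean, and a gene with a mean under 4.345, the median over probe sets, was not tested, leaving 10547 genes. The test was limma 3.58.1 under R 4.3.3 (lmFit and eBayes, variance trend on, two-sided, Benjamini-Hochberg over the genes tested). An exact permutation test of 3 against 3 arrays cannot go below 0.10. Limma was also run on simulated data of 2MT against saline (10547 genes, 50 changed at each fold). Each gene had its own mean and limma spread, with independent noise and no shift shared by the genes of 1 array. Limma recovered 42% of 1.25-fold, 96% of 1.5-fold and 100% of 2-fold and 3-fold changes, with 8 false calls among 177.

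The 10 genes and the lists, 12 of pathways and 10 of cell types, were chosen with earlier results of these data known. Of 302 list genes, 283 had a probe set with 1 symbol. Named are the 10 genes, each other tested Klf and Sp gene, up to 4 called genes with the smallest p of each list (all where 5 or fewer were called), called cell type markers, Alas2, Bpgm, and genes said to be named after their values were seen. Same-numbered arrays of the groups did not deviate together (correlations of 0.070, 0.040 and 0.022), so the numbers were not taken as pairs. The 17 alternatives changed 1 choice at a time: scaling between arrays (3 kinds), the dim filter, an offset of 16 before log2, how probe sets of a gene are joined, the variance trend, array weights, the replicate block, and each array left out. Figures come from matplotlib 3.10.9 (Python 3.11.15).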

Additional observations from a re-analysis of the deposited data

How the results depend on the processing

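The calls of Klf6 and Klf15 held under each of the 17 alternatives, and the 10 genes had 2 calls and the other Klf and Sp genes 0 in each. Of 170 alternative values for the 10 genes, 166 kept direction and side of the threshold, and 4 changed sign, all with 1 array left out: Klf3, which ran from -0.09 to 0.03, and Klf10, from -0.35 to 0.03. Among the other family genes 7 of 102 changed sign, for Klf14 (-0.03 to 0.07 with 1 array left out, -0.00 with cyclic loess), Klf16 (-0.18 to 0.01) and Sp1 (-0.09 to 0.02). Without saline 3, Alas2 and Bpgm changed sign, and with 1 array left out they ran from -0.79 to 0.17 and from -0.24 to 0.01. Over all genes, 488 were called, 262 to 648 with 1 array left out (298 without saline 1, 276 without 2MT 2, 262 without 2MT 3) and 292 without the variance trend. With the replicate block 586 genes passed. It changed no call of a named gene except that of Nr3c1, which passed (adjusted p = 0.042 in limma). Scaling moved the median of all genes by at most 0.006. Of 611 alternative values for named list genes, 48 lost a call and 7 gained one.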

Other observations

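Of the Klf and Sp genes, 9 lay under the dim filter, with means of 2.43 to 3.98, and were read from a limma fit with no filter, in which 2.05% of 19938 genes were called. None of the 9 was called, and 3 had an unadjusted p under 0.05. They are named here after their values were seen.

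Klf1, the erythroid factor of the family, was at 3.92, 4.00 and 3.85 on the saline arrays and at 3.06, 3.62 and 3.41 on the 2MT arrays. The groups did not overlap, and the difference was -0.56 ± 0.14 (SE, adjusted p = 0.0668). Its value on saline 3, the array with the most Alas2 signal, was the lowest of the saline group. Klf5, known for roles in smooth muscle and in fatty acid use of the heart, was at 3.72, 3.65 and 4.04 against 4.00, 4.18 and 4.26 (difference 0.34 ± 0.13, adjusted p = 0.269). Sp7, the bone factor osterix, was at 2.65, 2.33 and 2.64 against 2.75, 2.98 and 2.94 (difference 0.35 ± 0.13, adjusted p = 0.275). Whether signals this low lie above background was not tested.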
